A study of Rattus norvegicus with 7 samples.

Results

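The transcripts of 10 chemokine genes, Ccl2, Ccl3, Ccl4, Ccl5, Ccl6, Ccl7, Cxcl1, Cxcl2, Cxcl10 and Cxcl16, were followed in NR8383 cells, a rat alveolar macrophage cell line established from normal lung lavage, with or without zinc oxide nanoparticles (ZnO NPs, NM110). Every probe that carried one of these symbols as its gene name was taken, which gave 11 probes of the 45598 on the array, for 10 of 36174 gene names; Ccl6 had 2 probes and each other gene had 1. The control group was 4 arrays of NR8383 cells kept without particles for 4 h, and the ZnO group was 3 arrays of the same line exposed for 4 h to 2 µg/mL of NP ZnO, both in medium without serum. This dose is the labelled one, and the methods of the study give another. All samples came from this one line, part of which grows attached and part afloat, so the measurements stand for a cell line and not for macrophages of an animal. Total RNA was labelled with a single dye (Cy3), and each array is one labelled sample.

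Chemokines are small secreted proteins that guide leukocytes by binding G protein-coupled receptors. Those of the CC class (Ccl) mainly recruit monocytes, macrophages and T cells, whereas CXC chemokines such as Cxcl1 and Cxcl2 recruit neutrophils and Cxcl10 recruits activated T and NK cells. Alveolar macrophages release many of them when they meet microbes or particles, largely through NF-kB, and Cxcl10 also through interferon signalling.

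The genes are clustered in the genome. On rn4, the assembly that the array design names, the probes of Ccl2 (chr10:70257919-70257978) and Ccl7 (chr10:70268674-70268733) lay 10695 bases apart. Further along the chromosome were those of Ccl5 (chr10:71605854-71605913), Ccl6 (chr10:71659657-71659716 and chr10:71660623-71660682), Ccl3 (chr10:71744611-71744670) and Ccl4 (chr10:71760265-71760324), the last pair being 15594 bases apart. Cxcl16 was on the same chromosome (chr10:57296159-57296218). On chromosome 14 were Cxcl10 (chr14:17267994-17268053), Cxcl2 (chr14:18677165-18677224) and Cxcl1 (chr14:18690468-18690527), with 13243 bases between the probes of the last pair. The probes of Ccl3 and Ccl4, of Ccl2 and Ccl7 and of Cxcl1 and Cxcl2 shared no stretch longer than 6 bases in the same orientation, so the signals of these neighbours were read by distinct sequences.

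RefSeq promoters (GRCr8) were at hand for 6 of the 10 genes, Ccl6, Ccl7, Cxcl1, Cxcl2, Cxcl10 and Cxcl16. The 250 bases before the start of Cxcl1 (chr14:17479322-17479571, minus strand), Cxcl2 (chr14:17467256-17467505, minus strand) and Cxcl10 (chr14:15988816-15989065, plus strand) are shown because they set a pair of neutrophil chemokines, of which only Cxcl2 was measured above background, beside the interferon-related Cxcl10. Capitals mark matches, on either strand, to the NF-kB consensus and to the interferon response motif, GAAA, a gap of 2 bases and again GAAA.
Cxcl1: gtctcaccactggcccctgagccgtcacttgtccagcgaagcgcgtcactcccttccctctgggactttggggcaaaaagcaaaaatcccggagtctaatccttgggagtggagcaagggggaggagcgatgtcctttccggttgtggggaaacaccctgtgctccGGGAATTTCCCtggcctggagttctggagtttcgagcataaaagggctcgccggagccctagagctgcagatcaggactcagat
Cxcl2: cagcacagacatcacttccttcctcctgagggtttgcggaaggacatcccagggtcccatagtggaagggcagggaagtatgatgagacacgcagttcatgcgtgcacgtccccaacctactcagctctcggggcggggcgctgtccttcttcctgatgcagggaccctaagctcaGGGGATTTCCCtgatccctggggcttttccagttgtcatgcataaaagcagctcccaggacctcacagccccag
Cxcl10: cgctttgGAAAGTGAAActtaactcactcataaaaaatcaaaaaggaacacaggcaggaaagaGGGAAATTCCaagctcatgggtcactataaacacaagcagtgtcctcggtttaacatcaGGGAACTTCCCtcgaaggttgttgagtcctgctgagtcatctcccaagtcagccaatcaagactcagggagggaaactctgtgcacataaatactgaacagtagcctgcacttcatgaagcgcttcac
Cxcl1 and Cxcl2 each had an NF-kB consensus match read at 2 overlapping positions, beginning 84 and 74 bases before the start. Cxcl10 had 3 NF-kB matches, of which 2 overlapped, and the only interferon response match among the 6 promoters, beginning 243 bases before its start. Ccl7 had 1 NF-kB match, and Ccl6 and Cxcl16 had none. In the same window, the NF-kB consensus occurred in 6.325% of 33469 RefSeq promoters and the interferon response motif in 3.41%. The AP-1 motif TGANTCA was in the windows of Ccl7 and Cxcl10, against 6.34% of all promoters, and the metal response motif, searched as TGCACNC or TGCGCNC, was in those of Ccl6 and Cxcl2, against 20.6%. Such matches describe the letters and do not show that a factor binds there.

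On each array, the intensity of a probe was divided by the 75th percentile of the array's non-control spots and put on a log2 scale, so that 0 is a signal equal to that percentile. These levels are compared for the same probe between arrays and not between genes. A probe was tested if it was well above background on every array of at least 1 group, which held for 20043 probes. The 75th percentile ran from 958 to 1603 intensity units, 51.7 to 56.0% of spots were well above background, and no spot was saturated. Macrophage markers were present, with 12 of 15 tested, Cd68 among them. However, Marco was not well above background on any array, Adgre1 was so on only 1, and Itgax had no probe. None of 8 epithelial markers was tested. Tested were 2 of 8 markers of lymphocytes, 2 of 6 of fibroblasts, 3 of 5 of endothelial cells and 3 of 6 of neutrophils. The 3 endothelial ones, Pecam1, Cdh5 and Vwf, were well above background on all 7 arrays. So were Cd3d and Nkg7 of lymphocytes, Col1a2 and Dcn of fibroblasts, and Mpo and Camp of neutrophils, while S100a8 of neutrophils was so on 6. No marker of any list passed the test. All 7 arrays shared 1 slide, the controls filling a single column of it and the ZnO arrays the next, and an effect of that layout and an effect of the particles cannot be told apart.

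After 4 h of ZnO NPs, none of the 8 chemokine genes that could be tested differed from control at an adjusted p under 0.05 (limma, Benjamini-Hochberg over all probes tested), where 0.0499% of all probes did, 10 of them, all higher with ZnO. Ccl2 had the largest difference, a level 1.83 times that of control, and Ccl4 the only one in which the groups did not overlap, at 0.745 times control. Both had an unadjusted p under 0.05, as did 5.92% of all probes. The groups did not overlap for 7.38% of all probes, against 1 of 8 chemokine genes. The other 6 genes had log2 fold changes between -0.07 and 0.17. The median log2 fold change was 0.04 over the 8 genes and -0.01 over all probes tested. Centring the arrays on spike-in controls in place of the 75th percentile added 0.10 to every log2 fold change. It turned those of Ccl6 and Cxcl10 positive and brought the groups of Ccl4 into overlap. The changes of Ccl3, Ccl5, Ccl6, Cxcl10 and Cxcl16 have no settled sign, since each turned in at least 1 alternative fit given below.

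**Figure D1:**
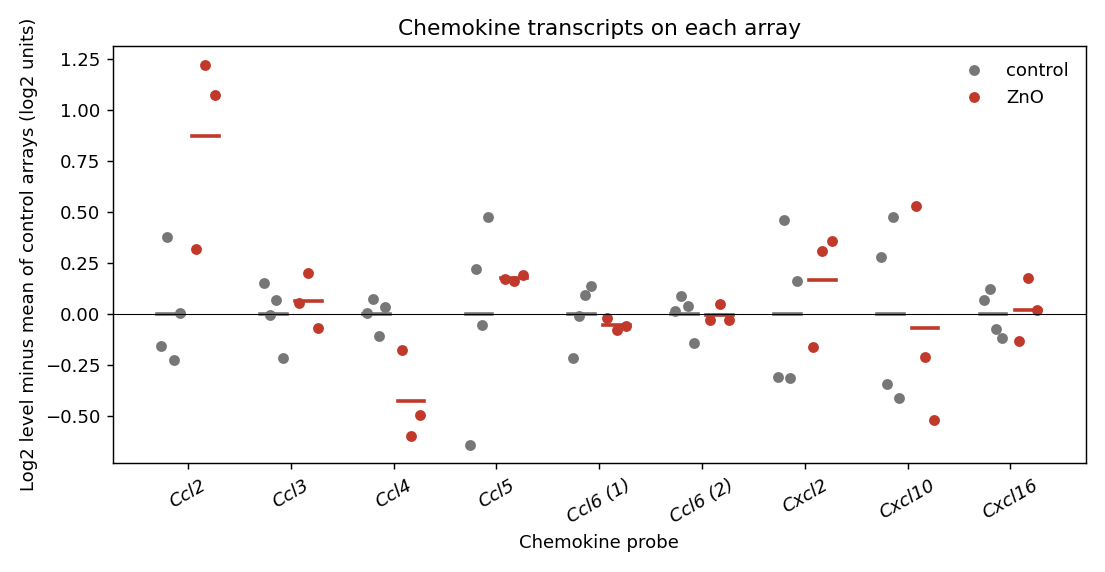
Log2 level of each tested chemokine probe on the 4 control arrays (grey) and 3 ZnO arrays (red), as the difference from the mean of the control arrays, with bars at the group means; Ccl6 (1) is the brighter of its 2 probes. Ccl2 lies 1.22 and 1.07 above the control mean on ZnO replicates 2 and 3 and 0.32 above it on ZnO replicate 1, which is within the control range, and all 3 ZnO points of Ccl4 are below the controls.

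Ccl2 (MCP-1) is the main attractant of monocytes and acts through the receptor Ccr2. Its log2 level was 1.02, 1.55, 0.95 and 1.18 on control replicates 1 to 4 and 1.496, 2.40 and 2.25 on ZnO replicates 1 to 3. ZnO replicates 2 and 3 were above every control, whereas ZnO replicate 1 was just under control replicate 2, so the groups overlapped. The means were 1.18 ± 0.27 (SD, n = 4) and 2.05 ± 0.48 (SD, n = 3), a log2 fold change of 0.87 with a 95% interval of 0.32 to 1.42, which is 1.25 to 2.68 fold (limma adjusted p = 0.648). Only 45 of the 20043 probes had a larger change in either direction, but by limma p-value Ccl2 was at rank 215. Its control SD was larger than that of 84.6% of probes tested. The 10 spots of this probe on an array agreed closely, with a median SD of 0.04, so the spread lay between arrays and not within them. Leaving out ZnO replicate 1 gave 1.15 with groups that no longer overlapped, and leaving out ZnO replicate 2 gave 0.70, the adjusted p being 0.415 and 1.00, respectively.

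Ccl4 (MIP-1β) draws monocytes and T cells. Its log2 level was -0.26, -0.19, -0.37 and -0.23 on the controls and -0.44, -0.86 and -0.76 on the ZnO arrays. All ZnO arrays were thus lower than all controls, although ZnO replicate 1 was near control replicate 3. The mean was -0.26 ± 0.08 (SD, n = 4) in controls and -0.69 ± 0.22 (SD, n = 3) with ZnO, a log2 fold change of -0.42 (95% interval -0.68 to -0.17, limma adjusted p = 0.643). There were 594 probes with a larger change. Ccl4, like Cxcl2, Cxcl10 and Cxcl16, was read from a single spot per array, which leaves no measure of its spread within an array.

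In the software's own quality report 4 arrays carried a mark to be evaluated, ZnO replicates 2 and 3, on which Ccl2 was highest and Ccl4 lowest, together with control replicates 3 and 4. Among the marked arrays, Ccl2 was at 0.95 and 1.18 in controls and at 2.40 and 2.25 with ZnO, and Ccl4 was at -0.37 and -0.23 in controls and at -0.86 and -0.76 with ZnO. Among the unmarked ones, Ccl2 was at 1.02 and 1.55 in controls and 1.496 with ZnO, and Ccl4 at -0.26 and -0.19 in controls and -0.44 with ZnO. For Ccl2 the groups were thus apart only among the marked arrays. For Ccl4 they were apart among both kinds, which had to follow because all its ZnO arrays were below all its controls. The part of the mark in these values was not tested.

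Ccl3 (MIP-1α), which binds Ccr1 and neighbours Ccl4, had a fold change near 1. Its log2 level was 4.24, 4.08, 4.15 and 3.87 on the controls and 4.14, 4.29 and 4.01 on the ZnO arrays. The ranges overlapped almost entirely, and the log2 fold change was 0.06 (95% interval -0.19 to 0.32, limma adjusted p = 0.999). The log2 ratio of Ccl3 to Ccl4 was 0.49 higher with ZnO on average, and higher on each ZnO array than on each control array. This pair was compared after the values had been seen, and no test is given for it.

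Ccl5 (RANTES) attracts T cells and monocytes, and all 14 of its spots were well above background. It had log2 levels of -5.11, -4.25, -4.53 and -4.00 on the controls and -4.30, -4.31 and -4.28 on the ZnO arrays. The 3 ZnO arrays lay together inside the wide control range, with SDs of 0.02 and 0.48. The log2 fold change was 0.17 (95% interval -0.38 to 0.73, limma adjusted p = 0.988). The control SD was larger than that of 95.7% of probes tested.

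Ccl6 is a rodent CC chemokine made by macrophages. Its brighter probe had log2 levels of 3.57, 3.78, 3.88 and 3.92 on the controls and 3.77, 3.71 and 3.73 on the ZnO arrays. The other probe gave 2.50, 2.57, 2.52 and 2.35 on the controls and 2.46, 2.53 and 2.46 on the ZnO arrays. On both probes the ZnO arrays lay within the control range. The log2 fold changes were -0.05 (95% interval -0.28 to 0.17) and -0.004 (-0.18 to 0.18), each with a limma adjusted p of 0.999. Each probe had 10 spots per array. The intervals of Ccl6 were among the narrowest of the chemokines, and a change of more than 1.13 fold upwards lay outside both.

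Ccl7 (MCP-3), which shares Ccr2 with Ccl2, was not well above background as a probe on any of the 7 arrays, with 1 of its 14 spots passing. Cxcl1 (KC), a neutrophil attractant, was likewise not well above background on any array, with 2 of 70 spots passing. No fold change is given for either gene. The neighbour of Ccl7 with the largest change of the group, Ccl2, was well above background on all 70 spots.

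Cxcl2 (MIP-2), the neutrophil attractant beside Cxcl1, was measured on every array. Its log2 level was -2.76, -1.99, -2.77 and -2.29 on the controls and -2.61, -2.15 and -2.09 on the ZnO arrays. The ZnO values fell within the control range, control replicates 1 and 3 and ZnO replicate 1 being the lowest. The log2 fold change was 0.17 (95% interval -0.35 to 0.69, limma adjusted p = 0.987).

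Cxcl10 (IP-10), the interferon-inducible ligand of Cxcr3, varied more within each group than between them. Its log2 level was 1.27, 0.65, 1.46 and 0.58 on the controls and 1.52, 0.78 and 0.47 on the ZnO arrays. Control replicates 1 and 3 and ZnO replicate 1 were high, and the remaining 4 arrays were low. The log2 fold change was -0.07 (95% interval -0.78 to 0.65, limma adjusted p = 0.999), which leaves room for 0.582 to 1.56 fold. Its control SD of 0.44 was larger than that of 94.8% of probes.

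Cxcl16 is a membrane-bound chemokine and scavenger receptor of macrophages that is shed by Adam10. Its log2 level was 0.78, 0.84, 0.64 and 0.60 on the controls and 0.58, 0.89 and 0.73 on the ZnO arrays. The groups overlapped, and the log2 fold change was 0.02 (95% interval -0.21 to 0.25, limma adjusted p = 0.999).

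**Figure D2:**
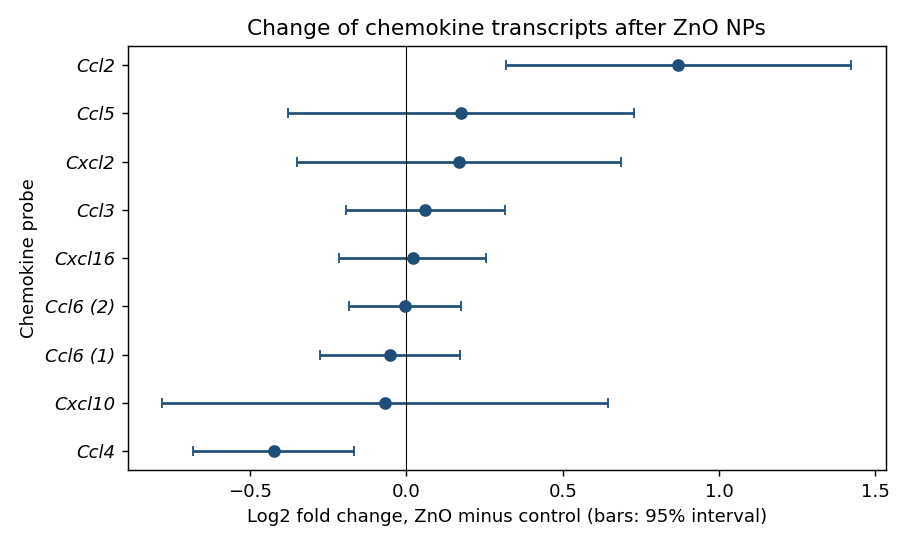
Log2 fold change of each tested chemokine probe (ZnO minus control, limma) with its 95% interval, in order of size; Ccl6 (1) is the brighter of its 2 probes. The intervals of Ccl2 (0.32 to 1.42) and Ccl4 (-0.68 to -0.17) lie to one side of 0 before adjustment, and those of Ccl5, Cxcl2 and Cxcl10 are wide.

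Cxcl10 and Cxcl2 showed a pattern across arrays that crossed the exposure. Each was read from 1 spot per array, so its spread within an array is not known. On control replicates 1 and 3 and ZnO replicate 1, Cxcl10 was at 1.27 to 1.52, above its 0.47 to 0.78 on the other 4 arrays. On the same 3 arrays Cxcl2 was at -2.77 to -2.61, below its -2.29 to -1.99 on the others. Ccl2 was also lower on these arrays within each group, at 0.95 and 1.02 against 1.18 and 1.55 in controls and at 1.496 against 2.25 and 2.40 with ZnO. Their 75th percentiles, 1317, 1179 and 980 intensity units, lay within the range of the 7 arrays, and no label sets these samples apart. None of the other 6 tested chemokines had these 3 arrays all on one side of the other 4. No test was made of this division, since it was seen in the values themselves, and its share over all probes was not counted.

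**Figure D3:**
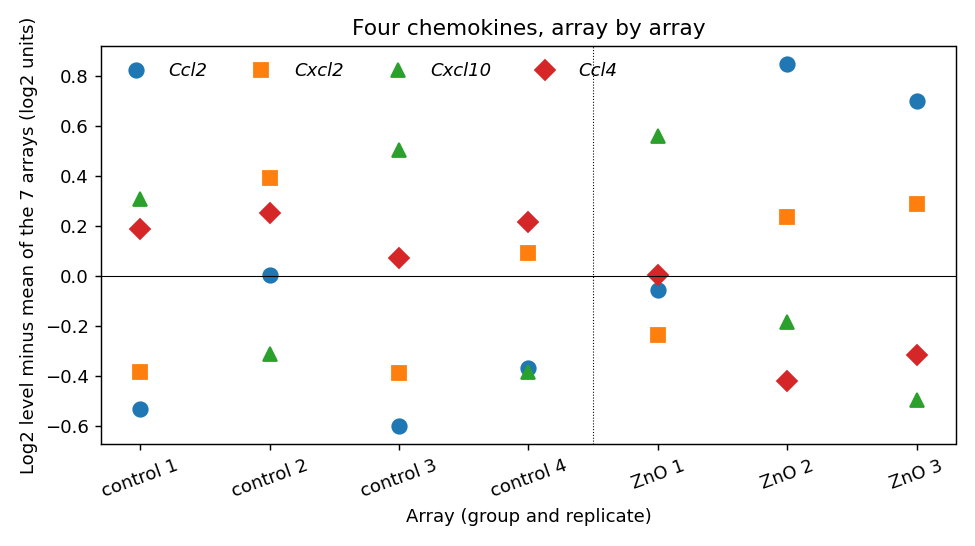
Log2 level of Ccl2, Cxcl2, Cxcl10 and Ccl4 on each array, as the difference from that gene's mean over the 7 arrays; the dotted line separates control from ZnO arrays. Cxcl10 is high and Cxcl2 low on control 1, control 3 and ZnO 1, and Ccl2 is highest and Ccl4 lowest on ZnO 2 and ZnO 3.

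Nothing in the rest of the chemokine system passed the test. Of 27 other chemokines, 26 were on the array and 5 were tested, with log2 fold changes from -0.27 to 0.18 (median 0.05). Named for the smallest unadjusted p, and so chosen on their values, were Cxcl9 at -0.27, Ccl22 at 0.18, Cxcl3 at -0.10 and Ccl27 at 0.12. Of 23 receptors, 8 of the 22 on the array were tested, none was called, and the median log2 fold change was -0.10. Those with the smallest unadjusted p were the atypical receptor Ccrl2 at -0.25, Cxcr1 at -0.12, the fractalkine receptor Cx3cr1 at -0.16 and Cxcr5 at 0.14. Receptors of the chemokines themselves, named after their values had been seen, included Ccr1, measured at -0.16, and Ccr2, Cxcr2, Cxcr3 and Cxcr6, which were not well above background on any array.

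Upstream, 23 of 27 listed NF-kB and cytokine genes were tested and none was called, while 1 was higher and 2 were lower when the p was left unadjusted, at a threshold of 0.05, against 5.92% of all probes (median log2 fold change -0.06). The inhibitor gene Nfkbie, which encodes IκBε, had -1.68, -1.61, -1.58 and -1.74 on the controls and -2.02, -2.05 and -2.08 on the ZnO arrays. All its ZnO arrays were lower than the controls, by -0.40 on the log2 scale (limma adjusted p = 0.319). The others with the smallest unadjusted p were Nfkbiz, an atypical IκB protein, at -0.26, the adaptor Traf6 at 0.24 and the cytokine Il1b at -0.25, with adjusted p of 0.810, 0.818 and 0.868 in limma. The groups did not overlap for 4 of the 23, 2 higher and 2 lower with ZnO, against 7.38% of all probes. Tnf had -0.21 (limma adjusted p = 0.872), and Il6 was not well above background.

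Among interferon genes and companions of Cxcl10, 18 of 22 were tested and none was called, with a median of -0.02. Ifnar1, a chain of the type I interferon receptor, had the smallest unadjusted p, with -1.74, -1.76, -1.54 and -1.57 on the controls and -2.04, -2.08 and -2.07 on the ZnO arrays. Its groups did not overlap, as for 1 of the 18 genes against 7.38% of all probes, and the log2 fold change was -0.41 (limma adjusted p = 0.414). Next were the kinase Tyk2 at -0.18 and Irf3 at 0.10. Ifnb1 was not well above background.

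For chemokine release and trimming, 5 of 10 genes of proteases and protease inhibitors were tested, with changes from -0.10 to 0.03. Adam10 and Adam17, the sheddases, were at -0.04 and -0.03. With them, the smallest unadjusted p belonged to the protease Mmp12 at -0.10 and the protease inhibitor Timp1 at 0.03. Of 10 genes of chemokine mRNA turnover, 9 were tested, with changes from -0.15 to 0.11, and Rc3h1 (Roquin-1), at -0.13, was the only one whose groups did not overlap, 1 of 9 against 7.38% of all probes. Zfp36l1 was at -0.15, and Hnrnpd and Cnot7 were each at 0.11. None of the genes in either list was called.

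**Figure D4:**
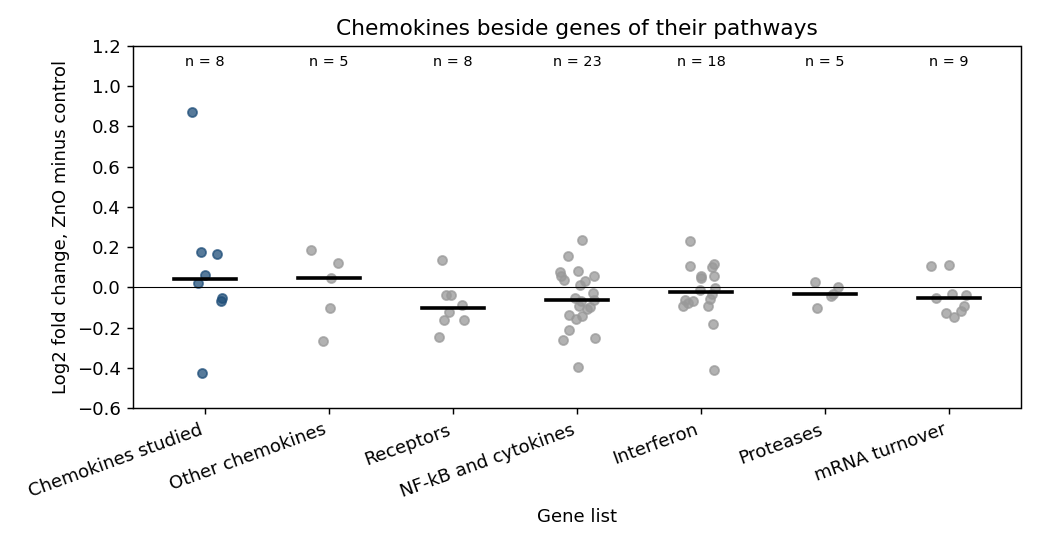
Log2 fold change (ZnO minus control) of the tested genes of each list, with a bar at the median and the number of genes above; the first column holds the 8 chemokines. Ccl2 at 0.87 lies above every other point, and Ccl4 at -0.42 is near Ifnar1 at -0.41 and Nfkbie at -0.40.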

How the data were processed

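Samples were grouped by the labels, 4 control and 3 ZnO. The authors hybridised one-colour Agilent rat arrays and deposited the scanner output of each, made with Agilent Feature Extraction 11.0.1.1, which subtracted background, detrended the signal and replaced low signals by surrogates. The deposited intensity values are linear and not normalized between arrays. The deposited table of the series equalled the median spot intensity on every array and served as an alternative. The labels give a dose of 2 µg/mL, used here, while the study's methods state another dose.

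The processed intensity was divided by the 75th percentile of each array's non-control spots and log2 transformed, and spots of a probe were averaged without outlier flags. A probe was well above background on an array when most of its usable spots were. Probes were compared with limma 3.58.1 in R 4.3.3, two-sided, with Benjamini-Hochberg adjustment over 20043 probes and a call at an adjusted p under 0.05. The series calls its replicates biological and says no more of them, and p-values measure only the spread between these samples. The number of arrays limits the precision. A gene is given by its brightest tested probe. The code was tested on simulated data. Alternatives were other scalings (quantile, median, spike-in), normexp background correction with an offset of 50, the deposited table, other filters on dim probes, trended and robust variance, averaging the tested probes of Ccl6, the study's thresholds (adjusted p under 0.001 with fold over 1.5), a replicate block and leaving out each array. A block for the slide could not be fitted, since there was 1 slide. Promoter steps and counts used Python 3 with pandas and scipy.

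The chemokines, the lists and the markers were chosen with earlier results of these data known. The named chemokines are all members of the rule. Of every other list, members past the threshold were to be named, otherwise up to 4 with the smallest unadjusted p. Some list genes are not reported here by name.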

Additional observations from a re-analysis of the deposited data

How the results depend on the processing

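No chemokine gene was called under any of the 18 alternatives. Ccl2 kept its direction in all 17 fits, between 0.70 and 1.15 on the log2 scale, and so did Ccl4, between -0.55 and -0.32. Fits that changed only the filter, the variance or the averaging of probes could not move these estimates, since each of these genes had 1 probe. Centring on spike-in controls moved the median of all probes to 0.10 and that of the chemokine genes to 0.14, and left 0 chemokine genes at an unadjusted p under 0.05 and 0 without overlap. Leaving out 1 array gave 1 to 2 chemokine genes without overlap, the second being Ccl2 without control replicate 2 or ZnO replicate 1 and Ccl6 without control replicate 1. The number of probes called, 10, ran from 4 to 14 over the alternatives. It was 14 with trended and robust variance and 11 with quantile normalization, and fell to 5 with spike-in centring, to 5 with no filter on dim probes, to 4 with the replicate block and to 4 at the study's thresholds, and was 7 to 8 with 1 array left out. The deviations of same-numbered arrays correlated at -0.09, 0.21 and -0.23. Among the ZnO arrays only replicate 2 correlated best with its own number, and none of control replicates 1 to 3 did. With so few arrays, these values cannot decide whether same-numbered arrays shared a preparation. Small fold changes turned sign. The replicate block gave the same fold changes as leaving out control replicate 4, which has no ZnO array of its number, so these count as the same estimate. Ccl3 was -0.011 with the replicate block and -0.011 to 0.13 with 1 array left out, below 0 without control replicate 4 or ZnO replicate 2 (-0.0092). Ccl5 was -0.038 to 0.33, below 0 without control replicate 1, and Ccl6 was 0.051 with spike-in centring. Cxcl10 was 0.036 with spike-in centring and -0.37 to 0.16 with 1 array left out, above 0 without control replicate 1 (0.026), control replicate 3 (0.090), ZnO replicate 2 (0.0043) or ZnO replicate 3 (0.16). Cxcl16 was -0.017 with median centring, -0.018 with the block and -0.057 to 0.098 with 1 array left out, below 0 without control replicate 3 (-0.0049), control replicate 4 (-0.018) or ZnO replicate 2 (-0.057). The cause of these shifts was not tested. Signal over background limits Ccl7 and Cxcl1, which gave no fold change.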

Other observations

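Of the 90 genes tested in the other lists and the marker lists, 12 were lower and 6 were higher on control replicates 1 and 3 and ZnO replicate 1 than on each of the other 4 arrays, and 72 showed neither. Of the 12 macrophage markers, 3 were lower (Cd14, Itgam and Msr1), 1 was higher (Pparg) and 8 were neither. The division was seen in the values, and no test was made of it. Its share over all probes was not counted, so whether these counts are unusual is not known. The genes given below are examples picked after their values had been seen. The integrin gene Itgam had log2 levels of -1.42, -0.56, -1.59 and -0.03 on control replicates 1 to 4 and -1.64, -0.64 and -0.37 on ZnO replicates 1 to 3. The chemokine receptor gene Ccr1 had -2.50, -1.78, -2.49 and -1.36 on the controls and -2.52, -2.01 and -2.06 on the ZnO arrays. The chemokine gene Ccl9 had 2.27, 2.81, 2.09 and 2.59 on the controls and 2.12, 2.58 and 2.76 on the ZnO arrays. Mmp12 had -1.74, -1.22, -1.67 and -0.97 on the controls and -2.05, -1.38 and -1.08 on the ZnO arrays. These 4 were among the 12 lower genes, and their log2 fold changes with ZnO were 0.02, -0.16, 0.05 and -0.10, respectively. Pparg, a macrophage transcription factor, went the other way, with 4.04, 3.85, 3.95 and 3.61 on the controls and 3.88, 3.74 and 3.58 on the ZnO arrays, and a log2 fold change of -0.13.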
